A study of Mus musculus with 37 samples.

Results

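Oligodendrocyte lineage genes were followed in 37 arrays of mouse primary astrocytes as a measure of these cells in the cultures. The set held 29 genes: 6 transcription factors of the lineage, 9 genes of precursors and of cells committed to differentiate, 9 genes of myelin structure and 5 genes of lipid and metabolic functions. Each gene was read through its probe set with the highest mean over the 37 arrays, which gave 27 measured members among 18194 gene symbols in the table. Enpp2 and Trf had no probe set of their own.

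The cells were astrocytes of newborn mice, stably transfected by nucleofection with a pcDNA3.1 hygromycin plasmid that carried Cdca7l or with the same plasmid empty, and grown in medium with serum. They came from females and males of the strains C57BL/6J (B6) and 129S4/SvJae (129). In B6 females there were 4 Cdca7l arrays and 5 vector arrays, and in B6 males 5 and 5; in 129 females there were 4 Cdca7l arrays and 4 vector arrays, and in 129 males 5 and 5. Each array also had a clone label, such as 3(1), and 15 of these labels occurred with both constructs within a strain and sex. The labels do not say what the 2 numbers of a clone label stand for.

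Oligodendrocytes make the myelin sheaths of axons in the central nervous system. They arise from precursor cells that are marked by Pdgfra and Cspg4 and by the transcription factors Olig1, Olig2 and Sox10. Myrf then switches on the genes of myelin, among them Mbp, Mog, Mag and Mobp. Olig2 is needed to specify the lineage and is also found in astrocyte progenitors, and cultures of neonatal astrocytes often carry precursor cells with them.

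Values are log2 expression values as deposited. The median of the whole table, 3.19, served as the background level, and a probe set was tested when it lay above that level on at least 4 arrays. Cdca7l, the transfected gene, was at 10.15 to 14.42 (median 12.55) on the 18 Cdca7l arrays and at 4.12 to 10.43 (median 8.24) on the 19 vector arrays; within each strain and sex these ranges did not overlap. The upper quartile of values was 9.03 to 9.51 on 36 arrays and 8.36 on 129 female vector 1(3). One array went against its label. On B6 female vector 5.1(1) Xist was at 2.40, against 10.71 to 12.20 on the other 16 female arrays, and the Y-linked Eif2s3y was at 11.91, within the 11.73 to 12.71 of the 20 male arrays. The arrays of the 129 male clones 3(1) and 5(1), 4 in all, also stood apart. There Dcn, the fibroblast proteoglycan decorin, was at 14.06 to 14.30, above its level on every other array. Calls of members that change without these arrays are given both ways. Calls of single genes outside the set are given with all arrays only.

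The members ranged from genes above background on all arrays to genes never above it. On every array, 6 members were above background: Olig1, Olig2, Nkx6-2, Cnp, Tspan2 and Lims2. Another 4 were above it on part of the arrays, Nkx2-2 on 17, Lhfpl3 on 7, and Mbp and Pcdh15 on 4 each. A further 6 were above it on 1 to 3 arrays, namely Sox10, Mog, Cldn11, Ugt8a, Ermn and Aspa. The remaining 11 were at or below background on every array: Gpr17, Mag, Mobp, Myrf, Gjc3, Fa2h, Opalin, Bcas1, Enpp6, Gpr37 and Tmem125. Of these 11, Bcas1 and Mobp had another probe set that exceeded background, Bcas1 on 129 male vector 3(1) at 6.84 and 129 male vector 5(1) at 4.199, and Mobp on 129 female Cdca7l 4(1) at 3.42. Thus 10 members were tested and 17 measured members were not. Against the name of the list, those 17 included the factors Sox10 and Myrf and the myelin genes Mog, Mag, Mobp, Cldn11, Gjc3, Ermn and Opalin. Through their chosen probe sets these were at background on all but 1 or 2 arrays each or on every array. Of the same roles, the factors Olig1, Olig2 and Nkx6-2 and the myelin gene Cnp were above it on every array. The factor Nkx2-2 was above it on 17 arrays and the myelin gene Mbp on 4.

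**Figure D1:**
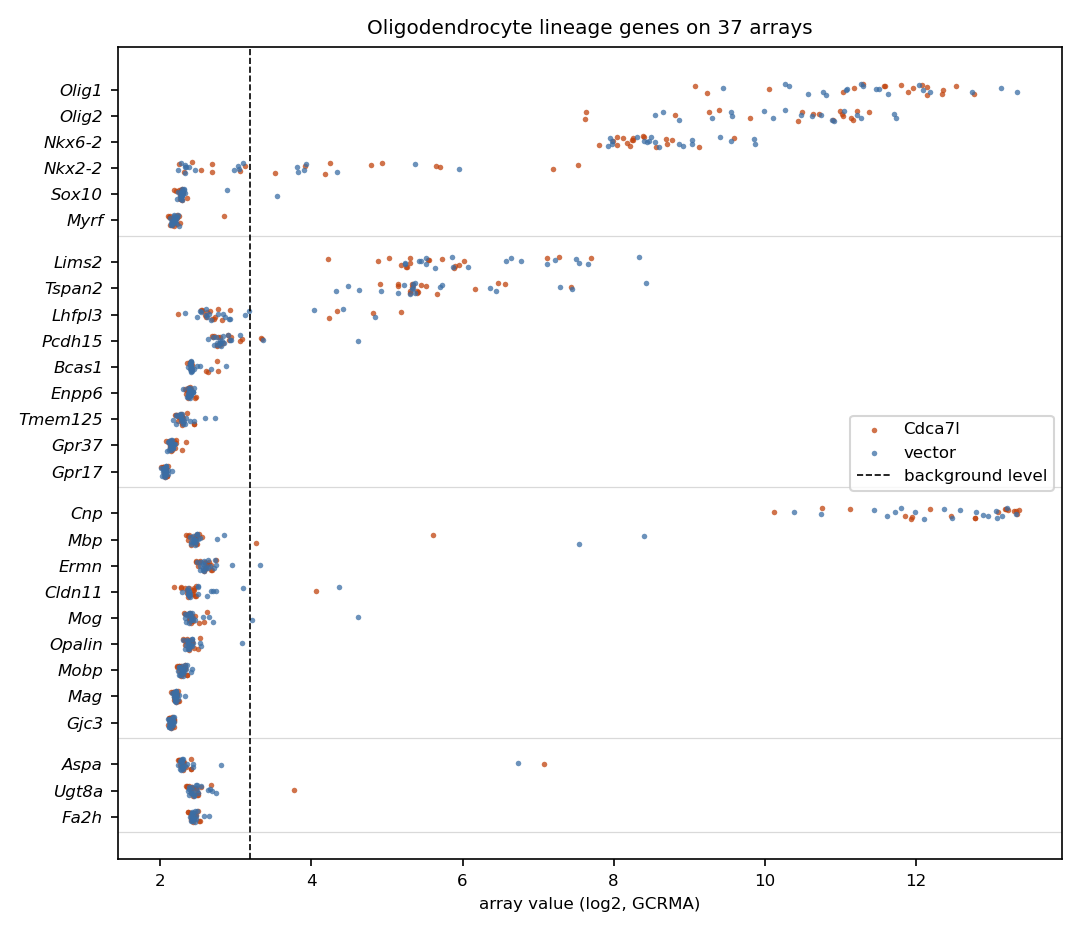
Value of each of the 27 measured members on each of the 37 arrays (log2, horizontal axis), ordered within transcription factors, precursor and commitment genes, myelin genes and lipid genes from top to bottom. Points are arrays, coloured by construct, and the dashed line is the background level of 3.19; 6 members lay right of it on every array and 11 on none.

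Among the transcription factors, Olig1, a basic helix-loop-helix protein, ranged from 9.08 to 13.33 with a median of 11.57. Olig2, its partner in the same family, ranged from 7.62 to 11.74 with a median of 10.63. Nkx6-2, a homeodomain repressor of the neural tube and of myelinating cells, ranged from 7.81 to 9.87. Nkx2-2, a homeodomain factor that marks the step from precursor to oligodendrocyte, spanned the widest range of these factors, from 2.23 to 7.53 with a median of 3.10. Sox10, an HMG-box factor that oligodendrocytes and Schwann cells share, was above background on 129 female vector 2(3) alone, at 3.54, and the other 36 arrays lay at or below the level. Its other probe sets, 2 in number, were at or below background on every array.

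Among the genes of precursors and commitment, Tspan2, a tetraspanin of early oligodendrocytes, ranged from 4.32 to 8.43 with a median of 5.36. Lims2, a LIM-domain protein of cell-matrix adhesions, ranged from 4.22 to 8.34 with a median of 5.87. Lhfpl3, a membrane protein enriched in precursors, reached 5.18 on B6 male Cdca7l 5(3), lay between 4.03 and 4.84 on 6 further arrays and was at or below background on the rest. Pcdh15, a cadherin also found in precursors, reached 4.62 on B6 male vector 2(4) and 3.33 to 3.36 on 3 further arrays. Gpr17, a receptor of cells about to myelinate, did not exceed 2.15, and Enpp6, a choline phosphodiesterase of newly formed oligodendrocytes, did not exceed 2.47.

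Among myelin genes Cnp, which encodes the cyclic nucleotide phosphodiesterase of non-compact myelin, was the only one above background on all arrays, at 10.12 to 13.37 with a median of 12.59. Of the other myelin genes, Mbp was above background on 4 arrays of 129 males. Mog, a protein of the outer myelin surface, exceeded background on 129 female vector 1(3) at 4.61 and on B6 male vector 3(5) at 3.21. Cldn11, the tight junction protein of myelin, did so on 129 female Cdca7l 4(1) at 4.05 and on 129 male vector 5(2) at 4.37. Mag, an adhesion protein of the inner sheath, did not exceed 2.32, and Mobp did not exceed 2.42 on its chosen probe set.

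Olig2 and Cnp were higher and Tspan2 was lower in B6 than in 129 cultures, averaged over sex and construct, while the other 7 tested members did not pass the threshold. These 3 calls among 10 tested members are near the share of all tested probe sets that passed, 25.2%. Olig2 was at 9.26 to 11.74 (median 10.91) on the 19 B6 arrays and at 7.62 to 11.38 (median 9.69) on the 18 arrays of 129. Cnp was at 11.14 to 13.33 (median 13.07) in B6 and at 10.12 to 13.37 (median 11.97) in 129. Tspan2 was at 4.32 to 6.56 (median 5.31) in B6 and at 5.14 to 8.43 (median 5.56) in 129. All 3 ranges overlapped; for Olig2 and Cnp the 129 arrays reached lower values, and for Tspan2 they reached higher ones.

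In the fit of all arrays with limma, Olig2 was higher in B6 by 1.08 ± 0.324 on the log2 scale (± SE), or 2.12-fold, with adjusted p = 0.0150. Cnp was higher by 0.81 ± 0.263, 1.76-fold, with adjusted p = 0.0233. Tspan2 fell by 0.85 ± 0.249 on the log2 scale, 1.81-fold, with adjusted p = 0.0124. Olig1 differed by 0.81 ± 0.330 and did not pass (adjusted p = 0.0684). Its values were 10.77 to 13.33 (median 11.81) in B6 and 9.08 to 12.54 (median 11.19) in 129. These counts have to be read against the background of the comparison: 25.2% of the 25579 tested probe sets passed it, 14.6% as higher in B6 and 10.6% as lower in B6. The median difference over the 10 members was 0.10, and over all tested probe sets it was -0.0047.

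The calls rested in part on a few 129 cultures. Without the 4 arrays of the 129 male clones 3(1) and 5(1), Olig2 differed by 0.57 (adjusted p = 0.107) and Cnp by 0.78 (adjusted p = 0.0691), and neither passed. Tspan2 was at -1.04 in that fit (adjusted p = 0.00857). With the mean over all its probe sets and all arrays, Tspan2 did not pass in limma (-0.77, adjusted p = 0.105). Without the 2 arrays of the 129 female clone 4(1), Olig2 differed by 0.92 (adjusted p = 0.0548), Cnp by 0.61 (adjusted p = 0.0909) and Tspan2 by -0.69 (adjusted p = 0.0492). Without 129 female Cdca7l 4(1) alone, Cnp had adjusted p = 0.0501. Arrays of a strain that share a clone label are not independent samples of that strain. Once a random replicate block for the clone label was added, the 3 calls held, with adjusted p = 0.0365 for Olig2, 0.0425 for Cnp and 0.0346 for Tspan2, and 16.6% of all tested probe sets passed.

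By group, Olig2 averaged 10.40 ± 0.826 (SD, n = 4) in B6 female Cdca7l cultures and 10.64 ± 0.727 (SD, n = 5) in B6 female vector cultures. In B6 males it averaged 10.99 ± 0.183 with Cdca7l and 11.02 ± 0.702 with vector (SD, n = 5 each). In 129 females it averaged 9.76 ± 0.935 with Cdca7l and 9.54 ± 0.911 with vector (SD, n = 4 each), and in 129 males 9.62 ± 1.85 with Cdca7l and 9.81 ± 1.03 with vector (SD, n = 5 each). The spread was widest in 129 male Cdca7l cultures, where 2 arrays were at 7.64 and 7.62 and the other 3 at 10.44 to 11.38. The strain difference in females minus that in males was -0.42 ± 0.649 for Olig2, 0.60 ± 0.526 for Cnp and -0.13 ± 0.498 for Tspan2.

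**Figure D2:**
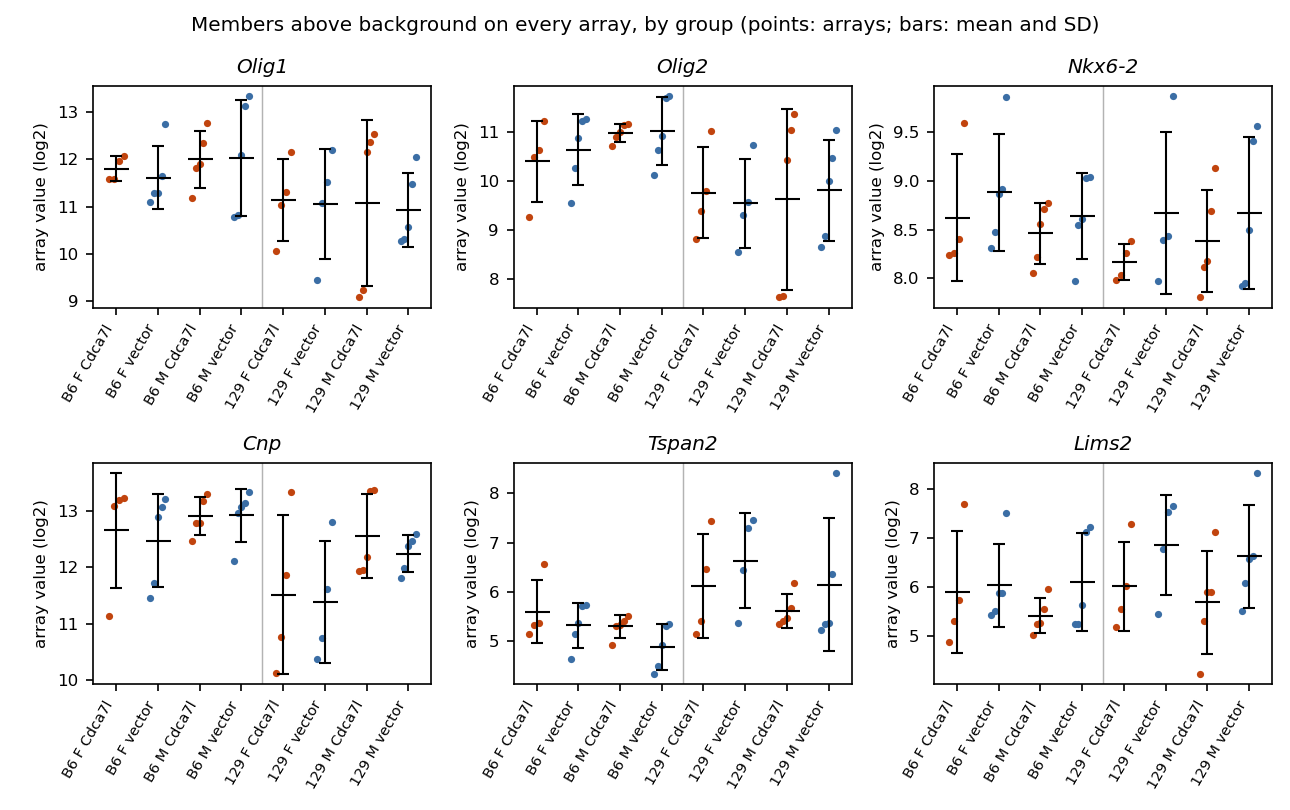
Array values (log2, vertical axis, scaled per panel) of the 6 members above background on every array, in the 8 groups, with B6 left and 129 right of the grey line (F, female; M, male). Points are arrays and bars are the mean and SD; B6 and 129 arrays overlap in every panel, and Olig2 reaches 7.62 in 129 males against a lowest B6 value of 9.26.

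Some markers of other cell types also passed between the strains in the same arrays. Their counts stand beside 25.2% of all tested probe sets that passed, 14.6% as higher and 10.6% as lower in B6. Of 12 astrocyte genes measured, 11 were tested and 5 rose in B6 (Fgfr3, Glul, Aqp4, Sox9 and Slc1a3); the mean of the list per array was 10.30 to 11.90 in B6 and 8.45 to 11.78 in 129. Of 8 fibroblast and meningeal genes, 7 were tested; Col3a1, Dcn, Col1a2 and Col1a1 fell in B6 and Islr rose. The mean of that list was 5.75 to 7.30 in B6 and 6.58 to 11.42 in 129. Of 7 cell division genes tested, Birc5, Aurka and Plk1 fell in B6, and the list was at 4.75 to 8.47 in B6 and at 5.13 to 11.40 in 129. Of 9 tested microglia and macrophage genes none passed, and that list was at 2.60 to 6.79 in B6 and at 2.60 to 7.98 in 129. Of 7 endothelial genes 2 were tested, and Flt1 was lower in B6. The mean of that list was 2.14 to 2.28 in B6, below background on every array, and 2.17 to 3.80 in 129. It exceeded background only on 129 male Cdca7l 5(1) at 3.80, 129 female vector 4(1) at 3.43 and 129 male Cdca7l 3(1) at 3.31. Schwann cell genes were at 4.77 to 5.84 in B6 and at 3.72 to 5.28 in 129, with Erbb3 and Cdh19 higher in B6. Of 5 ependymal genes tested, Foxj1, Dynlrb2 and Ccdc153 rose in B6, and that list was at 4.80 to 9.43 in B6 and at 2.70 to 8.03 in 129. Of 5 neuron genes tested, Tubb3 and Gad1 rose and Syt1 fell in B6, and that list was at 4.16 to 5.23 in B6 and at 3.99 to 5.31 in 129. The part of these other cells in the differences of Olig2, Cnp and Tspan2 was not tested, and in RNA of whole cultures fewer cells of a type and less RNA per cell cannot be told apart.

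The letters before the annotated starts of the 3 genes that passed between the strains are shown because Olig proteins bind E-boxes. RefSeq (GRCm38.p6) gave a start for 19 of the 29 members. The 250 bases before the start are printed in the direction of the gene, with each E-box (CANNTG, which reads the same on both strands) in capitals. The windows lie at chr16:91225300-91225549 (Olig2), chr11:100574689-100574938 (Cnp) and chr3:102734520-102734769 (Tspan2, the first of 2 starts), each on the plus strand. The Cnp gene as a whole is annotated from position 100574909, so the end of its window lies within the gene.
Olig2: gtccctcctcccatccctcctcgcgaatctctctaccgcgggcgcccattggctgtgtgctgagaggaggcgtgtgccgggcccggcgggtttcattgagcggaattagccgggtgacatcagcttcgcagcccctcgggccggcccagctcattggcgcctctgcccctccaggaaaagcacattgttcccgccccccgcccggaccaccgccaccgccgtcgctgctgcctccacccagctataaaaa
Cnp: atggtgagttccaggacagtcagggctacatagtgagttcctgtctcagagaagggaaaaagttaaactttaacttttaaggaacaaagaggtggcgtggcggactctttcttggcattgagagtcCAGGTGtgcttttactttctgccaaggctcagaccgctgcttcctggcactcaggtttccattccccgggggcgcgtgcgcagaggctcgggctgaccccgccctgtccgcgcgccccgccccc
Tspan2: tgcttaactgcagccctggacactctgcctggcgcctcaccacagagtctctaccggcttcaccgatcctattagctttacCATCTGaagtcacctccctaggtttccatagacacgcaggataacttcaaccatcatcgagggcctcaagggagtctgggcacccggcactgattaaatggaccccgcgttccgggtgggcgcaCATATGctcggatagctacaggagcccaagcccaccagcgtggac
The Olig2 window held no E-box and was 66.8% G and C, against a median of 52.4% over 32851 such windows. The Cnp window held 1 E-box and the Tspan2 window 2, and 66.2% of all windows held at least 1. A match is a string of letters, not a measured site.

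No member passed in the comparison of Cdca7l with vector, averaged over the 4 strain and sex groups. In limma 0 of 10 tested members passed, and 1 had an unadjusted p under 0.05, while 0.00782% of all tested probe sets passed. The median member difference was -0.05, and over all tested probe sets it was 0.02. The 3 members with the smallest p were Lims2, Nkx2-2 and Nkx6-2, each with adjusted p = 0.999.

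Lims2 was at 4.22 to 7.70 (median 5.55) on Cdca7l arrays and at 5.24 to 8.34 (median 6.08) on vector arrays, and the groups overlapped. The fitted difference was -0.65 ± 0.308 (SE, unadjusted p = 0.0430 from limma), and the Cdca7l array was lower in 11 of 15 pairs with a shared clone label. Most of that came from 4 pairs, in which Lims2 was at 5.31 with Cdca7l against 8.34 with vector in 129 male 3(3), 5.19 against 7.66 in 129 female 2(3), 5.27 against 7.23 in B6 male 2(2) and 5.25 against 7.12 in B6 male 5.6(1). In the other 11 pairs the difference lay within 1 on the log2 scale.

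Nkx2-2 was above background on 10 of 18 Cdca7l arrays and on 7 of 19 vector arrays. It was at 2.25 to 7.53 (median 3.72) with Cdca7l and at 2.23 to 5.96 (median 3.02) with vector, a fitted difference of 0.82 ± 0.438 (SE, unadjusted p = 0.0689 from limma). The highest values belonged to 129 male Cdca7l 1(4) at 7.53 and 129 male Cdca7l 3(3) at 7.19, and the vector array of clone 3(3) was at 2.27. In 129 female 4(1) it was at 5.70 with Cdca7l and at 2.33 with vector, whereas 129 male clones 3(1) and 5(1) ran the other way, at 2.68 and 2.69 with Cdca7l and 3.92 and 3.82 with vector. Over the 15 pairs Nkx2-2 was higher with Cdca7l in 10. That count includes pairs with both arrays at or below background, where values have no order. These were 129 female 2(1) and 2(3), B6 female 6(3), and B6 male 4(3) and 5.6(1). Nkx6-2 differed by -0.31 ± 0.188 and was lower with Cdca7l in 11 of 15 pairs, by at most 1.83.

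Within single strain and sex groups, 0 members passed in any of the 4 comparisons of Cdca7l with vector. In each of these, 0.0% of tested probe sets passed in limma. Mbp in 129 males was the 1 member with an unadjusted p under 0.05. Mbp entered the test only through the arrays of the 129 male clones 3(1) and 5(1). None of its p-values in these comparisons therefore supports a difference. In B6 females the smallest p-values belonged to Nkx2-2 (1.496 ± 0.888), Lhfpl3 (0.55 ± 0.532) and Nkx6-2 (-0.26 ± 0.381). In B6 males they belonged to Pcdh15 (-0.30 ± 0.231), Lims2 (-0.68 ± 0.590) and Lhfpl3 (0.51 ± 0.502). In 129 females they belonged to Nkx2-2 (1.28 ± 0.936), Lims2 (-0.85 ± 0.659) and Nkx6-2 (-0.50 ± 0.402), and in 129 males to Mbp (-1.54 ± 0.750), Lims2 (-0.94 ± 0.590) and Nkx2-2 (1.02 ± 0.837). The Cdca7l effect in B6 minus that in 129 also had 0 members past the threshold and 0 under an unadjusted p of 0.05, and 0.0% of probe sets passed. Its smallest p-values were those of Tspan2 (0.88 ± 0.498), Lhfpl3 (0.88 ± 0.525) and Mbp (0.82 ± 0.784). The Cdca7l effect in females minus that in males gave the same counts, 0 members and 0.0% of probe sets, with Nkx2-2 (1.12 ± 0.875), Pcdh15 (0.22 ± 0.242) and Mbp (0.70 ± 0.784) first by p.

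Between the sexes 0 of 10 members passed in limma and 1 had an unadjusted p under 0.05, while 0.321% of all tested probe sets passed. Cnp was at 10.12 to 13.33 (median 11.86) on the 17 arrays labelled female and at 11.80 to 13.37 (median 12.69) on the 20 male arrays. The female arrays reached lower, and the fitted difference of females minus males was -0.65 ± 0.263 (adjusted p = 0.204). Mbp differed by -0.74 ± 0.392 (adjusted p = 0.312) and Tspan2 by 0.43 ± 0.249 (adjusted p = 0.349). Every Mbp difference in this paragraph rests on the arrays of the 129 male clones 3(1) and 5(1), through which alone Mbp was tested. Without both 129 female vector 1(3) and B6 female vector 5.1(1), Cnp differed by -0.79 (adjusted p = 0.0871) and did not pass. In that fit Mbp differed by -0.75 (adjusted p = 0.266) and Tspan2 by 0.58 (adjusted p = 0.147). With array weights Cnp and Tspan2 passed, at -0.85 (adjusted p = 0.00593) and 0.63 (adjusted p = 0.0257), but so did 25.2% of all tested probe sets under that setting. The strain difference in females minus that in males had 0 members past the threshold, 0 with an unadjusted p under 0.05, and 0.0% of probe sets passing; Mbp (1.46 ± 0.784), Nkx2-2 (1.48 ± 0.875) and Cnp came first by p.

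**Figure D3:**
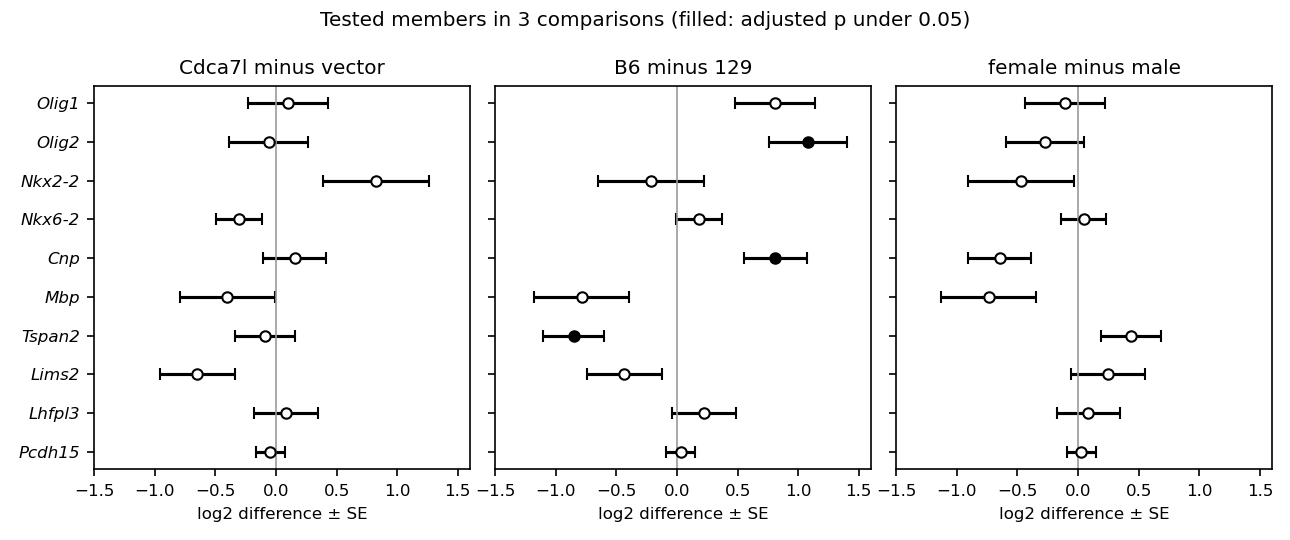
Fitted log2 difference with its SE (horizontal axis) of the 10 tested members in 3 comparisons, Cdca7l minus vector, B6 minus 129 and female minus male, each averaged over the other factors. Filled points passed at an adjusted p under 0.05; these are Olig2 (1.08), Cnp (0.81) and Tspan2 (-0.85) in the strain comparison.

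Mbp, the myelin basic protein gene, was above background only in the 129 male clones 3(1) and 5(1), and there with both constructs. Clone 3(1) had 5.61 with Cdca7l and 8.40 with vector, and clone 5(1) had 3.27 with Cdca7l and 7.54 with vector. The other 33 arrays did not exceed 2.84. In both clones the Cdca7l array was the lower one. Thus 2 clone labels held every value above background.

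On these 4 arrays the oligodendrocyte genes went both ways. The mean of the measured members was 3.79 and 3.71 with Cdca7l and 4.05 and 4.00 with vector, with clone 3(1) first. It spanned 3.71 to 4.15 over the 18 arrays of 129. The second list described below was at 7.32 and 7.17 with Cdca7l and 7.58 and 7.43 with vector, 7.58 being its highest value. Nkx2-2 exceeded background on both vector arrays, at 3.92 and 3.82, and Lhfpl3 on the 5(1) Cdca7l array, at 4.24. Olig2 was at 7.64 and 7.62 with Cdca7l and at 8.65 and 8.87 with vector, and Olig1 at 9.08 and 9.24 with Cdca7l and at 10.32 and 10.57 with vector. Both Cdca7l arrays had the lowest Olig1 and Olig2 of the series. Sox10, Mog, Mag, Mobp and Cldn11 were at or below background on all 4, while the other Bcas1 probe set named above was above it on both vector arrays. Pdgfra, the receptor that marks precursors and also fibroblasts, was at 11.24 to 11.48, its highest values in the series, and Cspg4, the other precursor marker, at 2.01 to 2.08, below background. Col3a1, a fibrillar collagen, was at 13.11 to 13.39 and the fibroblast and meningeal list at 11.36 to 11.42, against 5.75 to 9.39 elsewhere. Of the 8 Mbp probe sets, 3 others exceeded background. The first did so on 3 of the 4 arrays, at 4.88 in the 3(1) Cdca7l array and at 5.61 and 4.51 in the vector arrays; its value was 2.56 in the 5(1) Cdca7l array. The other 2 did so on 129 male vector 3(1) alone, at 5.13 and 6.13, and the remaining 4 stayed below background on all arrays. The part of other cell types in these Mbp values was not tested.

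Aspa, which encodes the enzyme that splits N-acetylaspartate, behaved likewise in a single clone label. It was at 7.07 with Cdca7l and at 6.73 with vector in 129 female 4(1), and at most 2.80 on the other 35 arrays. On the Cdca7l array of that clone Cldn11 was at 4.05 and Ugt8a, which makes the galactosylceramide of myelin, at 3.77, also above background, as was the other Mobp probe set at 3.42, while Mbp was at 2.47. The same 2 arrays had low Slc1a2, the main astrocyte glutamate transporter, at 3.64 with Cdca7l and 2.37 with vector. Their cell division list was at 11.40 with Cdca7l and 11.35 with vector, the highest of the series. Olig1 was at 10.06 and 9.45 and Cnp at 10.12 and 10.38.

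**Figure D4:**
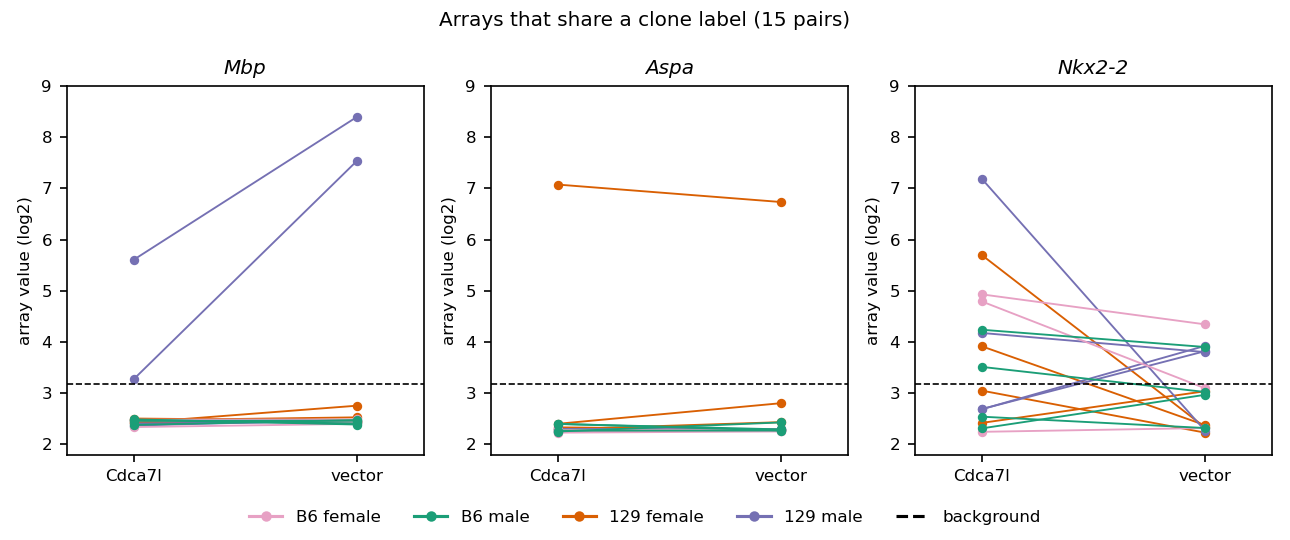
Values (log2, vertical axis) of Mbp, Aspa and Nkx2-2 on the Cdca7l and vector arrays of the 15 clone labels that occur with both constructs; each line is 1 clone label, coloured by strain and sex, and the dashed line is the background level. Mbp is above it in 2 clone labels of 129 males and Aspa in 1 of 129 females with both constructs, whereas Nkx2-2 crosses it in both directions.

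Among the 22 clone labels, Olig1 and Olig2 varied together. Values were centred on the group mean and averaged within a clone label, and the 15 relations among the 6 members above background on every array were computed. Olig1 and Olig2 correlated with Pearson r = 0.823 (n = 22, permutation p = 1e-05, the smallest the permutations could give; adjusted p = 0.00015) and Spearman rho = 0.823 (permutation p = 2e-05). Without the 2 clone labels farthest from the median of Olig1, r was 0.765. Within strains r was 0.516 in B6 (n = 12) and 0.948 in 129 (n = 10). Both genes lie on mouse chromosome 16.

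Cnp ran against Lims2 with r = -0.584 (adjusted permutation p = 0.0225) and rho = -0.583 (adjusted permutation p = 0.0402), and r was -0.602 in B6 and -0.573 in 129. Without the 2 farthest clone labels r was -0.406. Cnp ran against Tspan2 with r = -0.600 (adjusted permutation p = 0.0225), but the rank correlation did not pass, at -0.464 (adjusted permutation p = 0.114). Olig1 and Nkx6-2 had r = 0.536 (adjusted permutation p = 0.0335) and rho = 0.557 (adjusted permutation p = 0.0402), with r = 0.0991 in B6 and 0.817 in 129, a difference that was not tested. Olig2 with Cnp (r = 0.495) and Olig2 with Lims2 (r = -0.529) passed by Pearson r with adjusted permutation p = 0.0474 and 0.0335 and not by rank, at adjusted permutation p = 0.114 each. The other 9 relations did not pass by either measure. All these points share their arrays and the cell makeup of each culture.

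**Figure D5:**
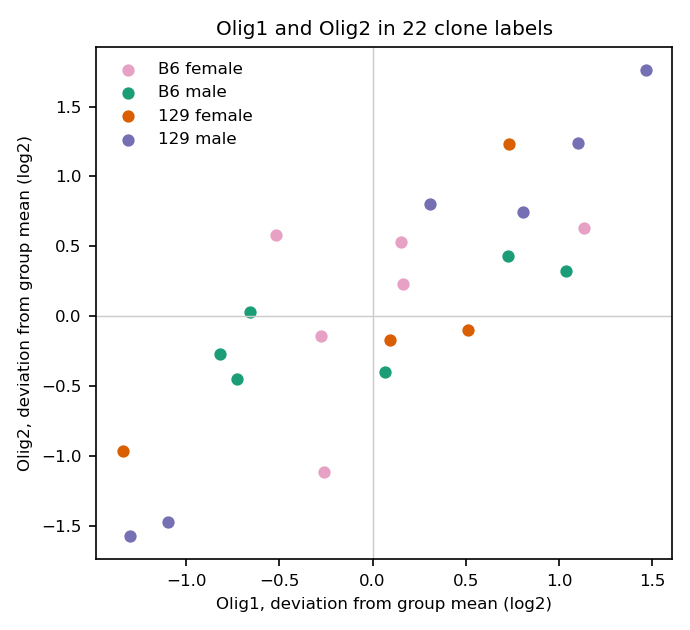
Deviation of Olig1 (horizontal axis) and Olig2 (vertical axis) from the group mean (log2) in 22 clone labels, 1 point each, coloured by strain and sex. The points rise together (r = 0.823), and 2 clone labels of 129 males lie lowest in Olig2.

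A second list of 40 oligodendrocyte genes that are no members was read in the same arrays. Of these, 34 had a probe set and 25 were tested. In the strain comparison 10 passed: Lpar1, Sirt2, Tmem63a, Sox6 and Nfasc rose in B6, and Apod, Nkd1, Gsn, Plxnb3 and Adamts4 fell, beside 25.2% of all tested probe sets (14.6% higher and 10.6% lower in B6). Apod, a lipid carrier that fibroblasts also make, fell by 3.80 ± 0.737 on the log2 scale, and Nfasc, the cell adhesion protein neurofascin, rose by 1.09 ± 0.349. Sox6, a factor of precursors that astrocytes also express, rose by 1.04 ± 0.240. The median over the 25 genes was 0.22, and over all tested probe sets it was -0.0047. In the Cdca7l comparison averaged over groups 0 of the 25 passed and 0 had an unadjusted p under 0.05; between the sexes 0 passed and 2 had an unadjusted p under 0.05. Pdgfra was above background on 36 arrays, from 2.65 to 11.48, while Cspg4 exceeded it on 1 array, B6 female vector 3(3), at 3.42.

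The genes whose deviations from the group means ran most like the mean of the tested members over the 37 arrays were Apbb1, Pgap4, Asrgl1, Plxnb1, Csdc2, Galnt16, Septin3, Nim1k, Slc15a2 and Rimklb, with r from 0.904 to 0.841. That mean itself correlated with its parts at 0.755 for Olig1, 0.653 for Nkx2-2, 0.619 for Olig2 and 0.611 for Cnp, and at -0.194 for Tspan2 and -0.198 for Lims2, so it describes part of the members and not all. The genes most like Olig2 were Ncan, the brain proteoglycan neurocan (r = 0.886), Eepd1 (0.844) and Ppargc1a (0.842). By value, Mbp ran with Otos (r = 0.998), Gdf10, a growth factor of the TGF-beta family (0.991), and Tcf21, a transcription factor of mesenchymal cells (0.980). Mbp was above background only on 4 arrays of 129 males, so these r values rest on those arrays. They do not measure how the genes vary together over the other cultures. The likeness to Olig2 and to Mbp was looked up after their values had been seen.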

How the data were processed

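RNA of 37 cultures was measured on 1-colour arrays, 1 array per culture. The deposited table of 45101 probe sets holds the authors' log2 values. The submitters' processing notes name GCRMA and Partek 6.5 and do not say whether all arrays were normalized in 1 run. Values were used as deposited. Names came from the platform annotation, updated through Entrez IDs against GRCm38.p6: 34958 probe sets had 1 symbol, 932 several and 9211 none, and those with several were not used for names.

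Control probe sets (64) were left out and 25579 probe sets above the median of the table on at least 4 arrays were tested. All 37 arrays entered 1 limma 3.58.1 fit (R 4.3.3) with 8 group means and 29 residual degrees of freedom. P-values were adjusted by Benjamini-Hochberg over all probe sets of a comparison, with a threshold of 0.05; the fit was tested on simulated data. The number of arrays limits the precision, and p-values measure the spread between these arrays. Correlations over clone labels used permutation tests in scipy. A fold understates a difference where 1 group is near background.

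Same-labelled Cdca7l and vector arrays deviated together in every pair in B6 (r = 0.376 to 0.775). In 129, r was -0.0887 in male clone 3(3), 0.0610 in female clone 2(3) and 0.416 to 0.716 in the other pairs. The main fit had no block and so counted arrays that share a clone label as independent. The correlation within a clone label was 0.409. The named genes were the members, passing or first by p (3 per comparison without a call), the passing genes of a second oligodendrocyte list and the 10 genes most like the mean of the tested members. Members, lists and tests were chosen with earlier results of these data known. Alternatives were no filter, quantile normalization, values raised to background, array weights, another variance prior, blocks on the clone label, the mean over a gene's probe sets, each array left out in turn and, chosen after seeing the data, arrays that stand apart left out.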

Additional observations from a re-analysis of the deposited data

Results flagged for a closer look

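Within the 8 groups, 76 sets of values of the 16 members above background on at least 1 array were searched for an array far from the rest of its group, and 15 such values were found. Members at background on most arrays entered the search through the high array itself, so their number cannot be set against chance. Among the 48 sets of the 6 members above background on every array, 4 such values were found. All 4 belonged to 1 clone label, B6 female 6(3), and 3 of them to 1 array. They are not separate events, so their number cannot be set against chance either. In B6 female Cdca7l 6(3), Cnp was low at 11.13 (the other 3 arrays at 13.09 to 13.23), Tspan2 was high at 6.56 (others 5.14 to 5.35) and Nkx6-2 was high at 9.59 (others 8.24 to 8.40); in the vector array of that clone Lims2 was high at 7.50 (others 5.42 to 5.88). In 129 female 4(1), Aspa was high at 7.07 with Cdca7l and at 6.73 with vector, and Cldn11 was high at 4.05 with Cdca7l. Mbp was high at 5.61 in 129 male Cdca7l 3(1).

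The other values belonged to members that were otherwise at background in their group. Sox10 was at 3.54 in 129 female vector 2(3). Mog was at 4.61 in 129 female vector 1(3), the array with the low upper quartile, and at 3.21 in B6 male vector 3(5). Lhfpl3 was at 5.18 in B6 male Cdca7l 5(3), at 4.24 in 129 male Cdca7l 5(1) and at 4.41 in B6 female vector 3(3). Pcdh15 was at 4.62 in B6 male vector 2(4).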

How the results depend on the processing

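Without the 4 arrays of the 129 male clones 3(1) and 5(1), and likewise without the 2 arrays of the 129 female clone 4(1), 1 member (Tspan2) passed between the strains in place of 3, while the share of all tested probe sets that passed was 16% and 18.2% in place of 25.2%; both alternatives were chosen after seeing the data. In the strain comparison Tspan2 lost its call with the mean over all its probe sets (-0.77, adjusted p = 0.105), and Olig1 gained one with array weights (adjusted p = 0.0475) and in 6 fits that each left out 1 array (lowest adjusted p = 0.0399). Array weights gave 2 passing members between the sexes (median member difference -0.36) and 2 for the strain difference in females minus that in males, where 24.3% of all tested probe sets passed as well. The median member difference in that last comparison was 0.12, and moved to -0.10 with quantile normalization and to 0.38 without the 129 male clones 3(1) and 5(1). Without those clones Mbp turned to 0.0057 between the sexes and to -0.024 for the strain difference in females minus that in males.

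With the clone label as a fixed replicate block, Lims2 in the averaged Cdca7l comparison was at -0.70 (adjusted p = 1.000), Lhfpl3 in B6 females turned to -0.10 and Pcdh15 in B6 males to 0.0088; the block changed no call of a member. Strain and sex differences could not be fitted with that block. With each array left out in turn, 2 to 4 members passed between the strains and 0 in the other 9 comparisons; Pcdh15 in B6 males ranged from -0.43 to 0.072, the highest without B6 male vector 2(4), and the median member difference for Cdca7l in B6 males ranged from -0.30, without B6 male vector 3(5), to 0.054. Over all probe sets, the count that passed between the strains was 6456, against 12132 with array weights and 4249 with the random block; between the sexes it was 82, against 6437, 19 and, without both 129 female vector 1(3) and B6 female vector 5.1(1), 260. GCRMA values near background have no order, so differences of Mbp, Nkx2-2, Lhfpl3 and Pcdh15 rest on the arrays above it.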
